A study of Mus musculus with 25 samples.

Results

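A set of 10 CC chemokine genes was followed in the mouse colon through a course of chemical colitis. They are Ccl2, Ccl3, Ccl4, Ccl5, Ccl7, Ccl8, Ccl11, Ccl17, Ccl20 and Ccl22, taken by gene name from the array files, and each had 1 probe among the 55681 different probes of the array. Of these 10 genes, 8 were bright enough to be tested among the 25448 genes or unnamed probes in the fit; Ccl20 and Ccl22 were not. The colons of 25 female mice, aged 8 weeks, gave total RNA that was labelled with Cy3 and hybridised to 1-colour Agilent arrays, 1 mouse per array. The mice were C57BL/6J wild type (WT) or Card9-/- on the same background. They drank 2% (w/v) dextran sulfate sodium (DSS), a polymer that injures the colonic epithelium, for 7 days and plain water for the 5 days after that. The groups were 3 mice labelled Card9-/- and 3 WT mice before DSS (day 0), 4 mice labelled Card9-/- and 5 WT mice at the end of DSS (day 7), and 5 mice labelled Card9-/- and 5 WT mice after recovery (day 12). A further day 7 Card9-/- mouse of the design was not analysed here. The comparisons ask how the colon responds to DSS, how it recovers, and whether the 2 genotypes differ at either point.

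CC chemokines are small secreted proteins that draw leukocytes out of the blood along a gradient, through G protein-coupled receptors on the cells they attract. Ccl2 and Ccl7 act through Ccr2 on inflammatory monocytes, Ccl3 and Ccl5 through Ccr1 on monocytes and T cells, Ccl8 in mice through Ccr8, Ccl11 (eotaxin) through Ccr3 on eosinophils, Ccl17 and Ccl22 through Ccr4 on T cells, and Ccl20 through Ccr6 on lymphocytes and dendritic cells. In the inflamed colon, monocytes that enter in this way become macrophages. Card9 is an adaptor protein of myeloid cells that passes on signals from receptors for fungal cell walls.

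The probes decide what can be measured, so stretches of 4 are shown, for the pair of members with the most similar profiles (Ccl3 and Ccl4) and for the pair that gave almost no signal (Ccl20 and Ccl22). Each line gives the first 30 bases of a probe of 60 bases, 5′ to 3′, with its position as the array design gives it. Exon and UTR positions were not looked up for this build.
Ccl3 probe, chr11:83461388-83461417, - strand, mm9: catgaactgacaaatgtacaatagatgctt
Ccl4 probe, chr11:83478052-83478081, + strand, mm9: tattatttatgttttagttataggacgcgt
Ccl20 probe, chr1:83115682-83115711, + strand, mm9: ttttcttataaaacagaaaagaattataag
Ccl22 probe, chr8:97274709-97274738, + strand, mm9: tggtattataagctatagttatatttatat
The longest run of bases that any 2 of the 10 probes shared was 8 bases, so the neighbouring chemokine genes on chromosome 11 were read by distinct sequences. G and C made up 16.7% of the whole Ccl20 probe, 26.7% of the Ccl22 probe, 31.7% of the Ccl3 probe and 55.0% of the Ccl17 probe. The signal of a probe depends on its sequence, so levels are compared between groups for each gene and not between genes.

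Promoter sequence from RefSeq (GRCm38.p6) was matched for 5 of the 10 genes (Ccl3, Ccl8, Ccl17, Ccl20 and Ccl22). The 250 bases before the annotated start are shown for 4 of them, 5′ to 3′ on the gene's strand, because they differ in the motifs found and in their response to DSS. Capitals mark a motif match.
Ccl3 promoter, chr11:83649379-83649628, - strand, GRCm38.p6: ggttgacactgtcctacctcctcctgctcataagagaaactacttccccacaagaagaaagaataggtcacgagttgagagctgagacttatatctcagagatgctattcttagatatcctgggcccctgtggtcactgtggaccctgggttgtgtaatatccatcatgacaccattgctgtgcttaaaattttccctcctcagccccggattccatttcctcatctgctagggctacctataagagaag
Ccl8 promoter, chr11:82114935-82115184, + strand, GRCm38.p6: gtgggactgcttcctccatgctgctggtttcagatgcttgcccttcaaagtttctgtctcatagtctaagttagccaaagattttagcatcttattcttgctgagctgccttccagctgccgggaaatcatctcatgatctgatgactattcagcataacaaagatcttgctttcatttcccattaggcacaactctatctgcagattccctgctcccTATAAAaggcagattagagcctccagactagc
Ccl17 promoter, chr8:94810203-94810452, + strand, GRCm38.p6: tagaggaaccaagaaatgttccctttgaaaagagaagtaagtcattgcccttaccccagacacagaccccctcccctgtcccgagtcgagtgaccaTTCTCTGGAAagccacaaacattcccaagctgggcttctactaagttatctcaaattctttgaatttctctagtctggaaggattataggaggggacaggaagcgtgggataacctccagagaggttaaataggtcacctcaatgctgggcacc
Ccl20 promoter, chr1:83116516-83116765, + strand, GRCm38.p6: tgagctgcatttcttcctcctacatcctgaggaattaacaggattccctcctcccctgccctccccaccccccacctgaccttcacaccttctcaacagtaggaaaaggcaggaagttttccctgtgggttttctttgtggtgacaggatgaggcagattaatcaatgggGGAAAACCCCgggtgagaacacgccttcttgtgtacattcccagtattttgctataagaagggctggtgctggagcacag
The NF-kB consensus, the AP-1 site TGANTCA, the STAT consensus and the TATA box TATAAA were searched on both strands. The marked matches do not overlap one another. Ccl8 had a TATA box beginning 32 bases before the start. Ccl17 had the STAT match TTCTCTGGAA beginning 154 bases before it, and Ccl20 had the NF-kB match GGAAAACCCC beginning 80 bases before it. No match lay in these windows of Ccl3 or Ccl22. Of 32851 promoter windows of 250 bases, 7.25% held the NF-kB consensus, 6.75% the AP-1 site, 5.85% the STAT site searched and 12.4% the TATA box. A match describes the letters in the window and is no evidence of binding.

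All levels below are log2 of the background-subtracted signal minus the array's 75th percentile, so a difference of 1 is a doubling. The 75th percentile ranged from 196 to 661 signal units over the arrays, and 46.5% to 67% of probes were well above background. The Card9 probe was brighter in the arrays labelled Card9-/- at every day, with levels from -1.52 to -0.48 in arrays labelled Card9-/- and from -6.84 to -2.93 in WT arrays. Its level averaged -1.20 ± 0.42 in arrays labelled Card9-/- and -6.06 ± 0.47 in WT arrays at day 0 (SD, n = 3 each). The difference was 4.86 ± 0.67 (SE) at day 0, 4.85 ± 0.55 at day 7 and 4.81 ± 0.52 at day 12, with adjusted p of 0.00998, 0.000452 and 0.000198 (limma). This runs against a deletion if the probe lies in the deleted part, which could not be checked here. The arrays are therefore called by their labels, and every direction between genotypes rests on those labels. Pancreatic acinar genes were high in 4 arrays. The mean of 10 such genes, relative to WT day 0, was 13.10 and 13.47 in replicates 2 and 3 of day 7 labelled Card9-/-, 12.44 in replicate 1 of day 12 labelled Card9-/- and 6.84 in replicate 5 of WT day 12, and at most 1.96 in the others. Proximal colon Hox genes were high in replicates 1 and 2 of day 0 labelled Card9-/- (2.93 and 2.50), in replicate 1 of WT day 7 (3.07) and in replicate 4 of WT day 12 (1.58), against at most 0.43 in the others. The part of these arrays in each result is given where leaving them out, or adding the Hox mean to the fit, changed a call.

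At day 7 of DSS, the Ccr2 ligands Ccl2 and Ccl7, the Ccr8 ligand Ccl8, the macrophage products Ccl3 and Ccl4 and the T cell attractant Ccl17 were higher than at day 0 under both labels. Ccl5 and Ccl11 were higher in arrays labelled Card9-/-, and did not pass the test in WT arrays. Among arrays labelled Card9-/-, 8 of the 8 tested members rose, where 6.93% of all features tested rose (limma, adjusted p under 0.05). Their median difference was 5.62, where that of all features was -0.08. Among WT arrays, 6 of the 8 rose, where 2.02% of all features did, and the median difference was 4.16, where that of all features was 0.03. Ccl3 was well above background on no day 0 array. Ccl4 was so on 1 day 0 array, a WT one, and Ccl7 on 1, labelled Card9-/-. The filter asked for 3 arrays, so these genes could enter the fit only through later days. The counts therefore describe the members bright enough to test and support nothing further. With the WT day 7 and day 0 arrays fitted alone, none of the 6 calls held, with adjusted p from 0.105 (Ccl3) to 0.182 (Ccl17). In that fit 38 features of the whole series passed in either direction, against 1106 in the main fit. With normexp background correction, another way to treat dim signal, the 8 calls in arrays labelled Card9-/- held while the differences narrowed, for instance to 3.89 for Ccl3, 4.21 for Ccl4 and 4.17 for Ccl2. In whole colon, more cells of a type and more RNA per cell cannot be told apart.

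Ccl2, the main attractant of inflammatory monocytes, stood at 1.72, 2.02, 1.60 and 1.62 in the 4 day 7 arrays labelled Card9-/-, against -5.14, -4.82 and -3.82 in the 3 day 0 arrays with that label. In WT arrays it stood at -1.70, 0.08, 3.62, 1.10 and -0.03 at day 7, against -5.30, -4.46 and -3.51 at day 0. Under each label every day 7 array lay above every day 0 array, but the 4 day 7 arrays labelled Card9-/- lay close together (SD 0.19) while the 5 WT arrays were spread out (SD 1.96). The difference was 6.33 ± 0.85 (SE, 80.3-fold) in arrays labelled Card9-/- and 5.04 ± 0.81 (32.8-fold) in WT arrays, with adjusted p of 4.79e-05 and 0.0013 (limma). At day 0 the Ccl2 probe was well above background on 1 of 3 arrays labelled Card9-/- and on 2 of 3 WT arrays.

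Ccl8, which in mice attracts Ccr8-bearing T cells, was well above background on all 25 arrays. It read 2.89, 2.38, 2.16 and 2.84 in day 7 arrays labelled Card9-/-, against -4.19, -3.25 and -1.99 at day 0. In WT arrays it read 1.92, 0.63, 3.32, 1.93 and 0.62 at day 7, against -3.46, -1.07 and -2.36 at day 0. The days did not overlap under either label, and the differences were 5.71 ± 0.67 (adjusted p = 1.41e-05) in arrays labelled Card9-/- and 3.98 ± 0.64 (adjusted p = 0.00118) in WT arrays (limma). Ccl7, a second Ccr2 ligand, averaged -0.14 ± 0.41 (SD, n = 4) at day 7 in arrays labelled Card9-/-, against -5.68 ± 2.24 (n = 3) at day 0, a difference of 5.53 ± 1.09 (SE, limma adjusted p = 0.00125). The wide day 0 spread came from replicate 3, at -3.10, the only one of the 3 arrays with Ccl7 well above background. In WT arrays Ccl7 averaged -1.13 ± 1.81 (SD, n = 5) at day 7, against -5.46 ± 0.87 (n = 3) at day 0, where no array was well above background. It was at least 11.1-fold higher (limma adjusted p = 0.0208), and the call was lost without WT day 0 replicate 1 (adjusted p = 0.12) or replicate 2 (0.0767). For such a bound, each dim array is given the weakest signal that still counted as well above background there, or the probe's own signal where that is higher.

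Ccl3, a macrophage and T cell product that attracts Ccr1-bearing cells, was well above background on none of the 6 day 0 arrays. It stood at 0.53, 1.40, 1.24 and 1.18 at day 7 in arrays labelled Card9-/-, against -6.58, -6.53 and -6.14 at day 0. Among WT arrays its levels were -3.78, -1.11, 0.99, -0.09 and -1.29 at day 7, against -6.43, -6.84 and -7.03 at day 0. The days were far apart under both labels, and the WT replicate 1, at -3.78, was the only day 7 array where Ccl3 was not well above background. Ccl3 was at least 53.1-fold higher at day 7 in arrays labelled Card9-/- (measured difference 7.50 ± 0.77, adjusted p = 4.79e-06) and at least 12.6-fold higher in WT arrays (5.71 ± 0.74, adjusted p = 0.000153; limma).

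Ccl4, a close relative of Ccl3 made by the same cells, stood at 1.23, 2.25, 2.04 and 1.79 at day 7 in arrays labelled Card9-/-, against -5.67, -5.99 and -4.74 at day 0. The WT levels were -2.45, 0.60, 2.46, 1.20 and 0.68 at day 7, against -3.35, -4.67 and -4.90 at day 0. Again WT replicate 1 was the low array of its group, and it still lay above every WT day 0 array. Ccl4 was at least 88.7-fold higher at day 7 in arrays labelled Card9-/- (measured difference 7.29 ± 0.78, adjusted p = 6.62e-06), and 28.0-fold higher in WT arrays (4.81 ± 0.74, adjusted p = 0.000823; limma). Of the WT day 0 arrays, 1 of 3 had Ccl4 well above background.

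Ccl5, a product of activated T cells and NK cells, was well above background on all 25 arrays, and its differences were small. It read 2.18, 2.99, 1.87 and 2.52 at day 7 in arrays labelled Card9-/-, against 0.61, 0.72 and 1.74 at day 0. WT arrays read 1.78, 1.27, 3.22, 1.87 and 1.48 at day 7, against 2.01, 0.64 and 1.75 at day 0. The groups stood apart by little under the Card9-/- label and overlapped in WT arrays. The difference was 1.36 ± 0.44 (adjusted p = 0.0316) in arrays labelled Card9-/- and 0.46 ± 0.42 (adjusted p = 0.632) in WT arrays (limma). The call was lost with the slide as a block (1.32, adjusted p = 0.0765), with only the groups compared in the fit (adjusted p = 0.0716), without the arrays rich in pancreatic genes (1.32, adjusted p = 0.0833), with the Hox mean in the fit (1.19, adjusted p = 0.114) and without day 0 replicate 1 (1.16, adjusted p = 0.143) or 2 (1.21, adjusted p = 0.126) or day 7 replicate 2 (1.16, adjusted p = 0.0945) or 4 (1.32, adjusted p = 0.0655) labelled Card9-/- (limma).

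Ccl11, the eosinophil attractant eotaxin, is made in the gut by stromal cells and macrophages. It read -0.74, -0.81, -0.42 and 0.51 at day 7 in arrays labelled Card9-/-, against -3.01, -2.92 and -3.55 at day 0. The WT arrays read -1.54, -1.71, 1.08, -1.08 and -2.67 at day 7, against -3.83, -2.65 and -2.67 at day 0. Ccl11 rose by 2.79 ± 0.67 in arrays labelled Card9-/- (adjusted p = 0.00517), while the WT difference of 1.87 ± 0.64 did not pass the test (adjusted p = 0.106; limma), with replicate 5 of day 7 at the day 0 level. Without that array the WT difference was 2.24 with adjusted p = 0.047. Ccl17, which attracts Ccr4-bearing T cells and is made mainly by dendritic cells, read -2.71, -1.06, -1.30 and -2.15 at day 7 in arrays labelled Card9-/-, against -4.50, -3.54 and -3.24 at day 0. In WT arrays it read -2.02, -2.45, -1.73, -2.51 and -1.35 at day 7, against -3.85, -3.43 and -2.83 at day 0. The days did not overlap under either label. Ccl17 rose by 1.95 ± 0.37 in arrays labelled Card9-/- (adjusted p = 0.000912) and by 1.36 ± 0.36 in WT arrays (adjusted p = 0.0318; limma). The WT call was lost without any of WT day 0 replicates 1 (adjusted p = 0.2) and 2 (0.122) and WT day 7 replicates 3 (0.0677) and 5 (0.0659), with normexp (0.0756) and with quantile normalization (0.0529; limma). The call in arrays labelled Card9-/- was lost with only the groups compared in the fit (adjusted p = 0.056; limma).

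**Figure D1:**
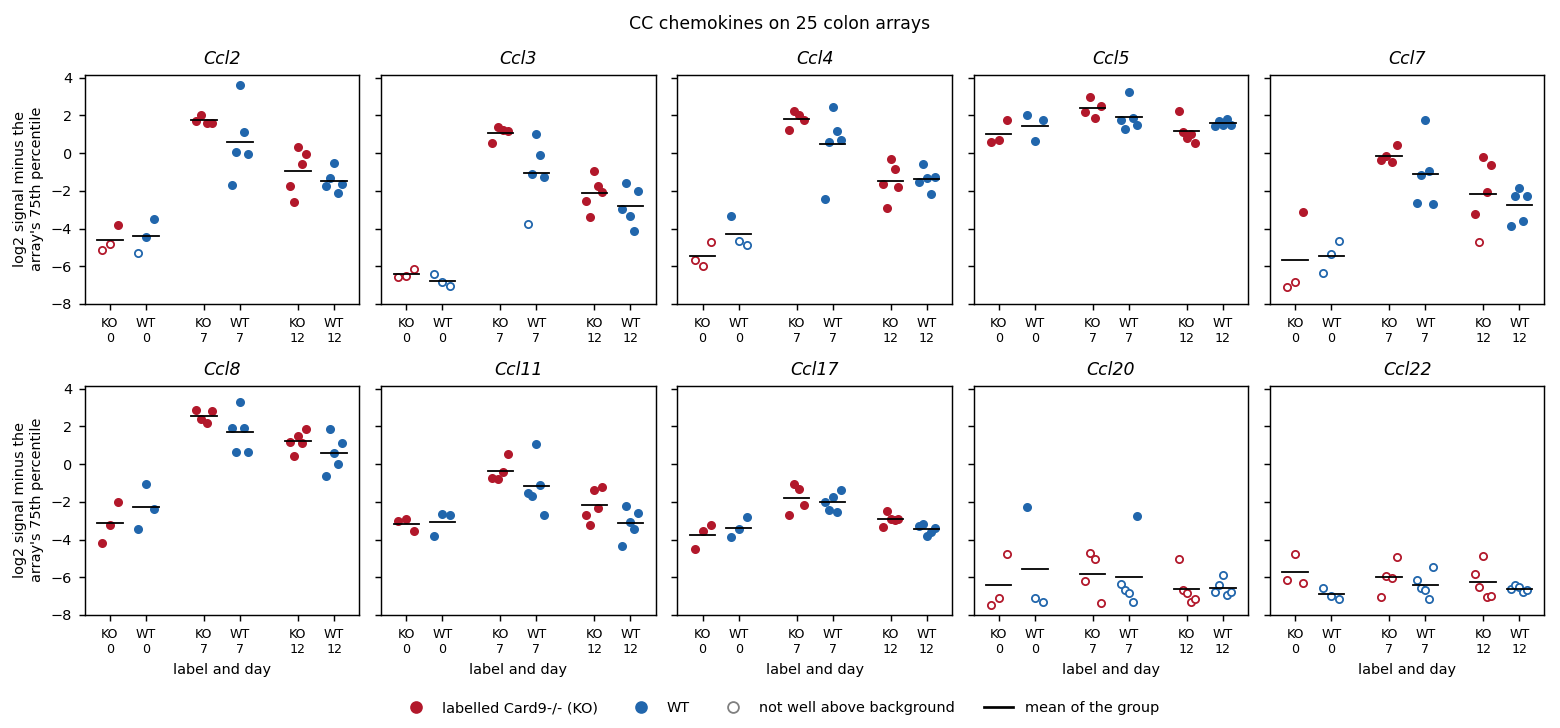
Each panel plots 1 chemokine, with the log2 level relative to the array's 75th percentile on the vertical axis and label (KO for arrays labelled Card9-/-, and WT) and day on the horizontal axis; points are single arrays, open where not well above background, and bars are group means. Ccl2, Ccl3, Ccl4, Ccl7 and Ccl8 were low at day 0 and high at day 7, Ccl5 overlapped between days in WT arrays, and Ccl20 and Ccl22 stayed near background on nearly every array.

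Ccl22, the second Ccr4 ligand, was well above background on 0 of 25 arrays, and Ccl20, the ligand of Ccr6, on 2 of 25. Ccl22 levels ran from -7.08 to -4.77 in arrays labelled Card9-/- and from -7.17 to -5.45 in WT arrays. The 2 arrays with Ccl20 well above background were WT day 0 replicate 1 (-2.27) and WT day 7 replicate 5 (-2.74), and all other arrays lay between -7.46 and -4.73. Neither gene entered the main fit. With no filter on dim probes, neither passed the limma test in any comparison, and the lowest adjusted p for either was 0.646. With probes this rich in A and T, a transcript below the array's detection limit cannot be told from an absent one.

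Markers of several cell types moved at the same time as these chemokines. In arrays labelled Card9-/-, 8 of 9 monocyte and macrophage markers, 6 of 6 fibroblast markers, 5 of 6 endothelium markers, 5 of 5 red blood cell markers, 4 of 6 dendritic cell markers, 4 of 8 B cell and follicle markers and 3 of 10 T cell markers rose between day 0 and day 7, and 3 of 9 epithelium markers fell, where 12.7% of all features fell. In WT arrays 1 of 9 macrophage markers and 2 of 6 dendritic cell markers rose, and no fibroblast, endothelium, red blood cell, B cell or T cell marker passed the limma test, although 5 of 6 fibroblast markers and 1 of 10 T cell markers had an unadjusted p under 0.05. So did 6 of 9 macrophage markers and 3 of 6 dendritic cell markers, where 4333 of the 25448 features did. The WT macrophage differences were positive for 9 of 9 markers (median 0.96). Of all features, 6.93% rose in arrays labelled Card9-/- and 2.02% in WT arrays. The mean macrophage marker level, relative to WT day 0, was 1.48 to 1.73 at day 7, against -0.81 to -0.46 at day 0, in arrays labelled Card9-/-. It was 0.31 to 1.79 at day 7, against -0.38 to 0.35 at day 0, in WT arrays. The mean T cell marker level was 0.56 to 1.03 at day 7, against -0.42 to 0.39 at day 0, in arrays labelled Card9-/-, and -0.23 to 0.71 at day 7, against -0.10 to 0.07 at day 0, in WT arrays. Of 6 eosinophil markers, 4 were bright enough to test. Among these, 2 rose and 1 fell between day 0 and day 7 in arrays labelled Card9-/-, with differences from -1.57 to 4.38, and in WT arrays 0 of 4 passed the limma test and 2 of 4 had an unadjusted p under 0.05. Siglecf was well above background on 25 of 25 arrays, Il5ra on 24, Ear6 on 21 and Ear1 on 8, and the granule genes Epx and Prg2 on 0 and 1. The part of these markers in the chemokine differences was not tested.

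**Figure D2:**
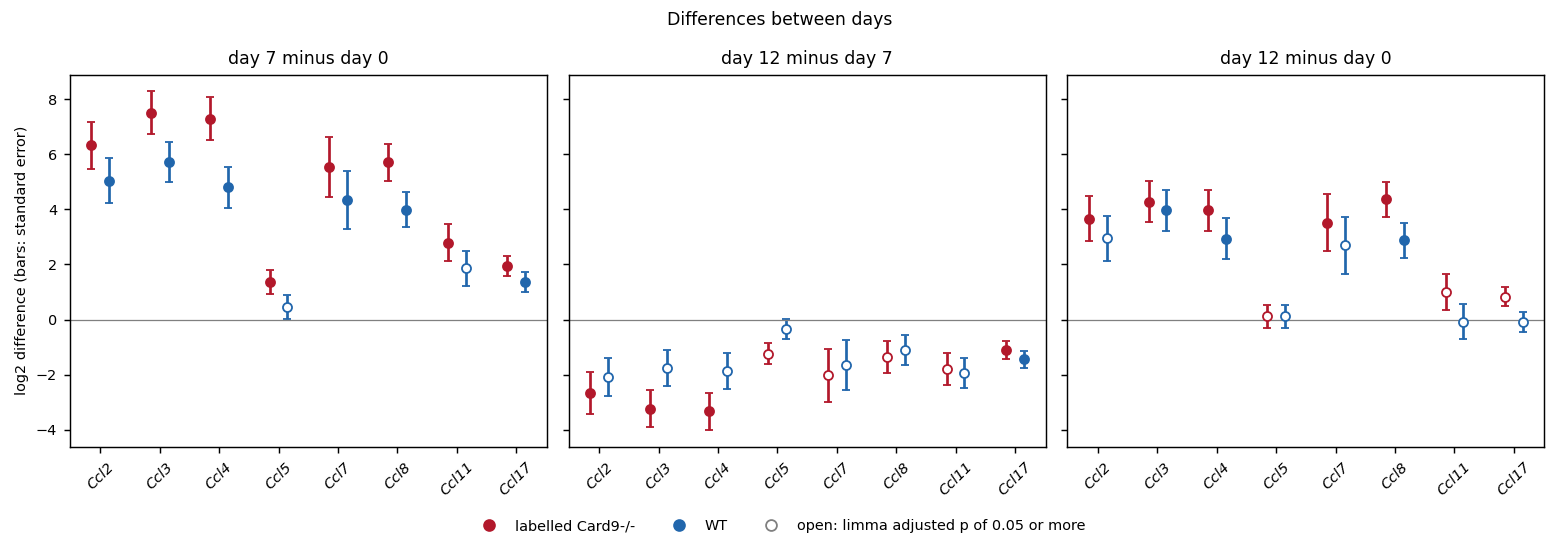
The panels plot the log2 difference between 2 days for the 8 tested chemokines, with bars for the standard error of the limma fit and separate points for arrays labelled Card9-/- (KO) and WT arrays. Ccl3 and Ccl4 differed by 7.50 and 7.29 between day 7 and day 0 in arrays labelled Card9-/-, and Ccl5 by 1.36.

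At day 12, after 5 days on water, the tested members averaged lower than at day 7 under both labels, and several were still above day 0. In arrays labelled Card9-/-, Ccl2, Ccl3, Ccl4 and Ccl17 fell, which is 4 of 8 members, where 1.97% of all features fell (limma). In WT arrays Ccl17 alone fell, which is 1 of 8, where 0.122% of all features did. The median difference of the tested members between day 12 and day 7 was -1.90 in arrays labelled Card9-/- and -1.70 in WT arrays, where those of all features were 0.02 and 0.01. The single-member differences ran from -3.33 (Ccl4) to -1.12 (Ccl17) in arrays labelled Card9-/- and from -2.08 (Ccl2) to -0.33 (Ccl5) in WT arrays.

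Ccl3 stood at -2.56, -3.39, -0.94, -1.74 and -2.08 at day 12 in arrays labelled Card9-/-, and Ccl4 at -1.63, -2.92, -0.31, -0.85 and -1.79. All of these lay below every day 7 array with that label, and above every day 0 array. Between day 12 and day 7, Ccl3 fell by 3.23 ± 0.68 (adjusted p = 0.00803) and Ccl4 fell by 3.33 ± 0.68 (adjusted p = 0.00695; limma). In WT arrays Ccl3 stood at -2.98, -1.60, -3.35, -4.14 and -1.98 at day 12, and Ccl4 at -1.52, -0.58, -1.32, -2.16 and -1.27, which overlapped with day 7 for both genes. The WT differences between day 12 and day 7 were -1.76 ± 0.64 for Ccl3 and -1.87 ± 0.64 for Ccl4, with adjusted p of 0.231 and 0.204 (limma). The overlap came from WT day 7 replicate 1 alone (-3.78 for Ccl3 and -2.45 for Ccl4), an array with high Hox genes. Without that array the differences were -2.437 for Ccl3 and -2.605 for Ccl4, with adjusted p of 0.0337 and 0.0197 (limma).

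Ccl2 stood at -1.76, -2.61, 0.35, -0.55 and -0.06 at day 12 in arrays labelled Card9-/-, which is below every day 7 array, and fell by 2.66 ± 0.75 (limma adjusted p = 0.0329). In WT arrays it stood at -1.74, -1.33, -0.52, -2.13 and -1.63, which overlapped with day 7 (difference -2.08 ± 0.71, limma adjusted p = 0.194). Ccl17 stood at -3.36, -2.48, -2.90, -2.97 and -2.93 at day 12 in arrays labelled Card9-/-, and at -3.31, -3.17, -3.82, -3.59 and -3.36 in WT arrays. It fell by 1.12 ± 0.33 in arrays labelled Card9-/- (adjusted p = 0.0391) and by 1.44 ± 0.31 in WT arrays (adjusted p = 0.0381; limma). The WT days did not overlap for Ccl17, and 1 array of day 7 labelled Card9-/-, replicate 1 at -2.71, lay within the day 12 range. Ccl8 averaged 1.22 ± 0.54 (SD, n = 5) at day 12, against 2.57 ± 0.36 (n = 4) at day 7, in arrays labelled Card9-/- (difference -1.35 ± 0.59, SE, limma adjusted p = 0.168). Ccl5, Ccl7 and Ccl11 had differences of -1.24, -2.01 and -1.79 in arrays labelled Card9-/-, with adjusted p of 0.052, 0.216 and 0.0654 (limma). Ccl5 passed in 6 of 20 alternatives, among them the Hox mean in the fit (-1.28, adjusted p = 0.0429; limma). It also passed without day 12 replicate 1 (adjusted p = 0.0171) or day 7 replicate 3 (0.0489; limma), which are rich in pancreatic genes.

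Without the 4 arrays rich in pancreatic genes, which leaves 2 day 7 arrays labelled Card9-/-, no member passed the test between day 12 and day 7 under either label. The differences were then -2.38 for Ccl2, -2.89 for Ccl3, -2.98 for Ccl4 and -0.39 for Ccl17 in arrays labelled Card9-/-, with adjusted p of 0.266, 0.126, 0.125 and 0.675, and -1.46 (adjusted p = 0.0508) for Ccl17 in WT arrays (limma). Over the whole series 249 features passed under the Card9-/- label and 28 in WT arrays, against 1963 and 124 in the main fit. Leaving out single arrays gave 2 to 3 calls in arrays labelled Card9-/-, with 2 without day 7 replicate 2 or replicate 4. Over the whole series 1033 to 2260 features then passed, against 1963 in the main fit. The Ccl17 call was lost without day 12 replicate 1, 3, 4 or 5 or day 7 replicate 2, 3 or 4, and the Ccl2 call without day 12 replicate 1 or 2 or any 1 of the day 7 arrays, while those of Ccl3 and Ccl4 held. In WT arrays leaving out single arrays gave 0 to 3 calls, with 3 without day 7 replicate 1 and 0 without day 7 replicates 3 or 5 or any of the 5 day 12 arrays. There 28 to 231 features of the whole series passed, against 124 in the main fit.

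Against day 0, Ccl2, Ccl3, Ccl4, Ccl7 and Ccl8 were still higher at day 12 in arrays labelled Card9-/-, 5 of 8 members, where 3.71% of all features were. Ccl3, Ccl4 and Ccl8 were still higher in WT arrays, 3 of 8, where 1.13% of all features were (limma). The filter limits these counts as it does those of day 7. Ccl8 read 1.20, 0.42, 1.48, 1.11 and 1.89 at day 12 in arrays labelled Card9-/-, and -0.64, 1.85, 0.59, 0.03 and 1.10 in WT arrays, above every day 0 array with the same label. It was 20.6-fold higher than at day 0 in arrays labelled Card9-/- (4.36 ± 0.64, adjusted p = 0.000415) and 7.37-fold higher in WT arrays (2.88 ± 0.64, adjusted p = 0.0214; limma). Ccl3 was at least 5.67-fold higher in arrays labelled Card9-/- (measured difference 4.27 ± 0.74, adjusted p = 0.00171) and at least 3.73-fold higher in WT arrays (3.96 ± 0.74, adjusted p = 0.00697; limma). Ccl4 was at least 8.83-fold higher in arrays labelled Card9-/- (measured difference 3.96 ± 0.74, adjusted p = 0.00315) and 7.66-fold higher in WT arrays (2.94 ± 0.74, adjusted p = 0.0456; limma). The WT call of Ccl4 was lost without any 1 of the 8 arrays (adjusted p from 0.0513 to 0.188) and in 14 of 19 alternatives in all. The WT call of Ccl8 was lost without day 0 replicate 1 (2.30, adjusted p = 0.19) or 3 (adjusted p = 0.0791) or day 12 replicate 2 (0.062) or 5 (0.0547), and with only the groups compared in the fit (0.0796; limma). Ccl2 was higher in arrays labelled Card9-/- (3.67 ± 0.81, adjusted p = 0.00937), where it was well above background on 5 of 5 arrays at day 12 and 1 of 3 at day 0, so that the size of the difference rests on dim signals. With normexp it was 1.94 (adjusted p = 0.0983; limma). Its WT difference was 2.95 ± 0.81 (adjusted p = 0.0682; limma). That difference passed in 3 of 19 alternatives, among them the Hox mean in the fit (adjusted p = 0.0401; limma). Ccl7 differed by 3.52 ± 1.05 in arrays labelled Card9-/- (adjusted p = 0.0452) and by 2.69 ± 1.05 in WT arrays (adjusted p = 0.237; limma). The Ccl7 call was lost in 12 of 18 alternatives, among them the slide as a block (3.58, adjusted p = 0.0624) and leaving out day 0 replicate 1 (adjusted p = 0.257) or 2 (0.238) or day 12 replicate 3 (0.116), 4 (0.0726) or 5 (0.11) with that label (limma).

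Markers differed between day 12 and day 0 as well. In arrays labelled Card9-/-, 8 of 9 macrophage markers, 5 of 6 fibroblast markers, 5 of 8 B cell and follicle markers, 4 of 6 dendritic cell markers, 4 of 10 T cell markers, 2 of 4 eosinophil markers and 1 of 6 endothelium markers were higher (limma). There 1 of 4 eosinophil markers and 1 of 9 epithelium markers were lower, where 3.26% of all features were. The eosinophil differences ran from -2.71 to 3.17. In WT arrays 1 of 10 T cell markers and 1 of 4 eosinophil markers were higher, and no macrophage, fibroblast, B cell, dendritic cell or endothelium marker passed the limma test. Of all features, 3.71% were higher in arrays labelled Card9-/- and 1.13% in WT arrays. An unadjusted p under 0.05 was found for 2 of 9 macrophage, 0 of 6 fibroblast, 0 of 8 B cell, 3 of 6 dendritic cell and 0 of 6 endothelium markers in WT arrays. The mean macrophage marker level was 0.71 to 1.03 at day 12, against -0.81 to -0.46 at day 0, in arrays labelled Card9-/-, and 0.16 to 0.87 at day 12, against -0.38 to 0.35 at day 0, in WT arrays. Their part in the chemokine differences was not tested.

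The members with the smallest day 7 differences, Ccl5, Ccl11 and Ccl17, had small differences from day 0 at day 12. Between day 12 and day 0, Ccl5 differed by 0.13 ± 0.42 in arrays labelled Card9-/- and by 0.12 ± 0.42 in WT arrays, Ccl11 by 1.00 ± 0.64 and -0.07 ± 0.64, and Ccl17 by 0.83 ± 0.36 and -0.08 ± 0.36. None of these passed the test, with adjusted p of 0.189 and above (limma). With the Hox mean in the fit, 2 members stayed called between day 12 and day 0 in arrays labelled Card9-/-, and Ccl2 (2.69, adjusted p = 0.152), Ccl4 (2.68, adjusted p = 0.0728) and Ccl7 (2.42, adjusted p = 0.351) did not. In that fit 333 features of the whole series passed in either direction, against 1773 in the main fit. With normexp, Ccl8 was the only member still called under either label (adjusted p = 0.00158 in arrays labelled Card9-/- and 0.0404 in WT arrays; limma). Features of the whole series that passed then numbered 1339 under the Card9-/- label and 291 in WT arrays, against 1773 and 441 in the main fit. Leaving out day 0 replicate 1 or 2 with the Card9-/- label, the arrays with high Hox genes, gave 3 calls each, with those of Ccl2 and Ccl7 lost. Over the whole series 524 and 479 features then passed. In WT arrays 1 call was left without day 0 replicate 1 or 3 or day 12 replicate 2 or 5. There 112, 236, 231 and 254 features of the whole series passed, against 441 in the main fit. Without the 4 arrays rich in pancreatic genes, Ccl7 was not called in arrays labelled Card9-/- (3.79, adjusted p = 0.0617), and 1 member passed the test in WT arrays (Ccl3, adjusted p = 0.0409), while Ccl8 (2.75, adjusted p = 0.0859) and Ccl4 (2.91, adjusted p = 0.126) did not (limma). Whole-series counts in that fit were 1953 under the Card9-/- label and 247 in WT arrays, against 1773 and 441 in the main fit.

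No member passed the limma test between the genotype labels at any day. At day 0, 0 of 8 members passed, where 0.00393% of all features did, and 0 of 8 had an unadjusted p under 0.05. At day 7, 0 of 8 passed, where 0.55% of all features did, and 1 of 8 had an unadjusted p under 0.05. At day 12, 0 of 8 passed, where 0.0707% of all features did, and 0 of 8 had an unadjusted p under 0.05. At day 7 the mean of each tested member was higher in arrays labelled Card9-/- than in WT arrays, with a median difference of 0.94, where that of all features was -0.06. Marker means stood apart in the same comparison. The macrophage markers were higher in arrays labelled Card9-/- for 9 of 9 (median difference 0.80), the B cell and follicle markers for 8 of 8 (2.01), the red blood cell markers for 5 of 5 (3.28) and the pancreatic genes for 10 of 10 (6.44). None of these markers passed the limma test, and 6, 6, 5 and 8 of them had an unadjusted p under 0.05. Of the eosinophil markers, 1 of 4 was higher (limma). The part of these markers in the differences between labels was not tested.

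Ccl3 had the widest gap at day 7, with a mean of 1.09 ± 0.38 (SD, n = 4) in arrays labelled Card9-/- and -1.05 ± 1.77 (n = 5) in WT arrays. The difference was 2.14 ± 0.68 (SE), with a 95% interval from 0.73 to 3.55, an unadjusted p of 0.00476 and an adjusted p of 0.119 (limma). WT replicate 3, at 0.99, lay within the range of the arrays labelled Card9-/-, and the other 4 WT arrays lay below it. Without WT replicate 3 the difference was 2.66 with adjusted p = 0.0145. In that refit 2273 features of the whole series passed between labels at day 7, against 140 in the main fit, so the gained call was not particular to Ccl3. Over 19 alternatives the Ccl3 difference ran from 1.46, without WT replicate 1 (-3.78), to 2.66, and 18 of them gave no call. Within the 4 slides the Ccl3 difference at day 7 ran from 1.28 to 4.31, and was positive on 4 of 4, as it was for Ccl2, Ccl4, Ccl5 and Ccl8. The 4.31 came from the slide where WT replicate 1 was the only WT day 7 array. Ccl4 differed by 1.33 with a 95% interval from -0.09 to 2.75, Ccl2 by 1.12 (-0.43 to 2.68), Ccl7 by 0.99 (-1.01 to 2.98) and Ccl8 by 0.89 (-0.33 to 2.11). Ccl11 differed by 0.82 (-0.40 to 2.04), Ccl5 by 0.47 (-0.33 to 1.27) and Ccl17 by 0.21 (-0.47 to 0.89). These intervals leave room for sizeable differences in most members, so the test does not show that the labels act alike.

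**Figure D3:**
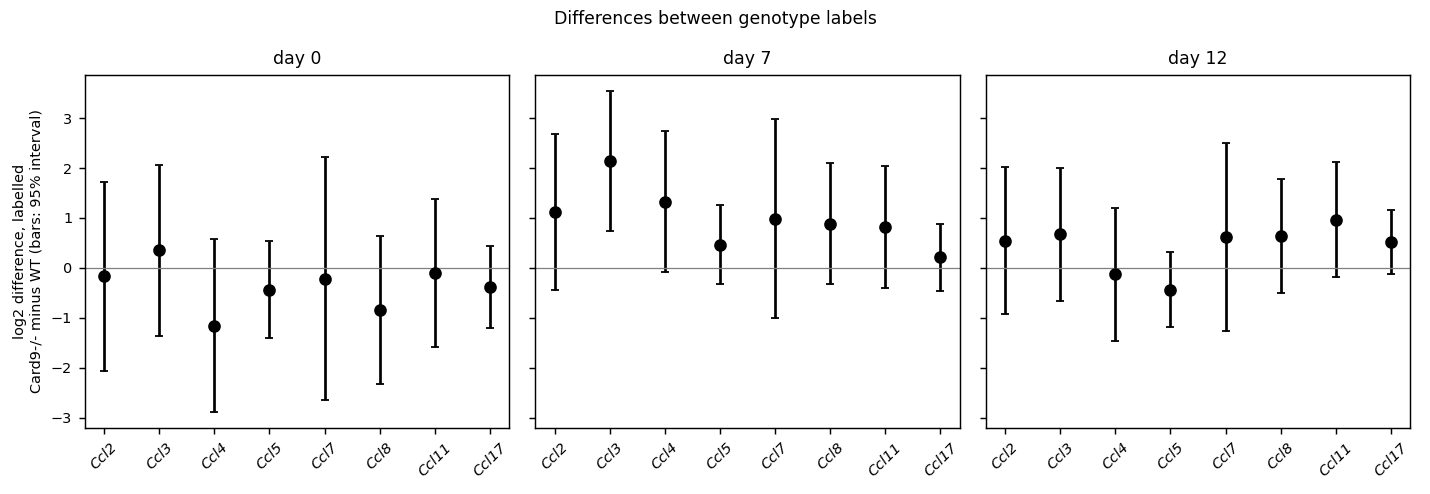
The log2 difference between arrays labelled Card9-/- and WT arrays is plotted for the 8 tested chemokines at day 0, day 7 and day 12, with bars for the 95% interval of the limma fit. At day 7 every point lies above 0 and only the interval of Ccl3, from 0.73 to 3.55, leaves 0 out.

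At day 0 the differences between labels ran from -1.16 (Ccl4, 95% interval -2.89 to 0.57) to 0.35 (Ccl3, -1.36 to 2.07), with Ccl3 not well above background on any of these arrays. At day 12 they ran from -0.44 (Ccl5, -1.19 to 0.31) to 0.97 (Ccl11, -0.18 to 2.12). The changes over time were also compared directly. For the change between day 0 and day 7, 0 of 8 members passed the test between labels, where 0.00393% of all features did, and 1 of 8 had an unadjusted p under 0.05. That member was Ccl4, whose change was larger by 2.49 ± 1.07 in arrays labelled Card9-/- (95% interval 0.25 to 4.72, unadjusted p = 0.0309, adjusted p = 0.371; limma). This size rests on dim day 0 levels, with Ccl4 well above background on 0 of 3 arrays labelled Card9-/- and 1 of 3 WT arrays. Over 26 alternatives it ran from 1.12 to 2.98, and none called it. For the change between day 7 and day 12, 0 of 8 members passed the test between labels, where 0.00786% of all features did, and 0 of 8 had an unadjusted p under 0.05. The size for Ccl5 was -0.91 with a 95% interval from -2.00 to 0.19, and for Ccl3 -1.47 (-3.41 to 0.47).

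The members did not vary independently between mice of a group. WT day 7 replicate 3 had the highest level of its group for 7 of the 8 tested members, all but Ccl17, and replicates 1 and 5 had the lowest for 3 members each. At day 0 labelled Card9-/-, replicate 3 was the highest of the 3 arrays for 7 members. After subtraction of the 6 group means, 27 of the 28 pairs of members had a positive Pearson correlation over the 25 arrays, with a median of 0.36. Ccl3 and Ccl4 had the closest pairing (r = 0.93), and Ccl2 and Ccl7 followed (r = 0.87). Ccl5 correlated with no other member above 0.34, and Ccl17 with none above 0.15. Ccl8 and Ccl11 correlated at 0.74. All points of these correlations share the scaling of their array.

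The marker lists divided the members further. Ccl11 deviations went with those of the fibroblast markers (r = 0.82), the macrophage markers (r = 0.81) and the endothelium markers (r = 0.80). Ccl8 and Ccl2 went with the macrophage markers (r = 0.75 and 0.74), and Ccl4 with them less (r = 0.40) and with the fibroblast markers hardly at all (r = 0.01). Ccl5 correlations were lower, with 0.46 for the eosinophil, 0.42 for the macrophage, 0.41 for the red blood cell and 0.36 for the T cell markers. Ccl4 and Ccl3 deviations ran against those of the proximal colon Hox genes (r = -0.60 and -0.50), and Ccl17 went with the dendritic cell markers at 0.47, the eosinophil markers at 0.44, the B cell and follicle markers at 0.40 and the pancreatic genes at 0.37.

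**Figure D4:**
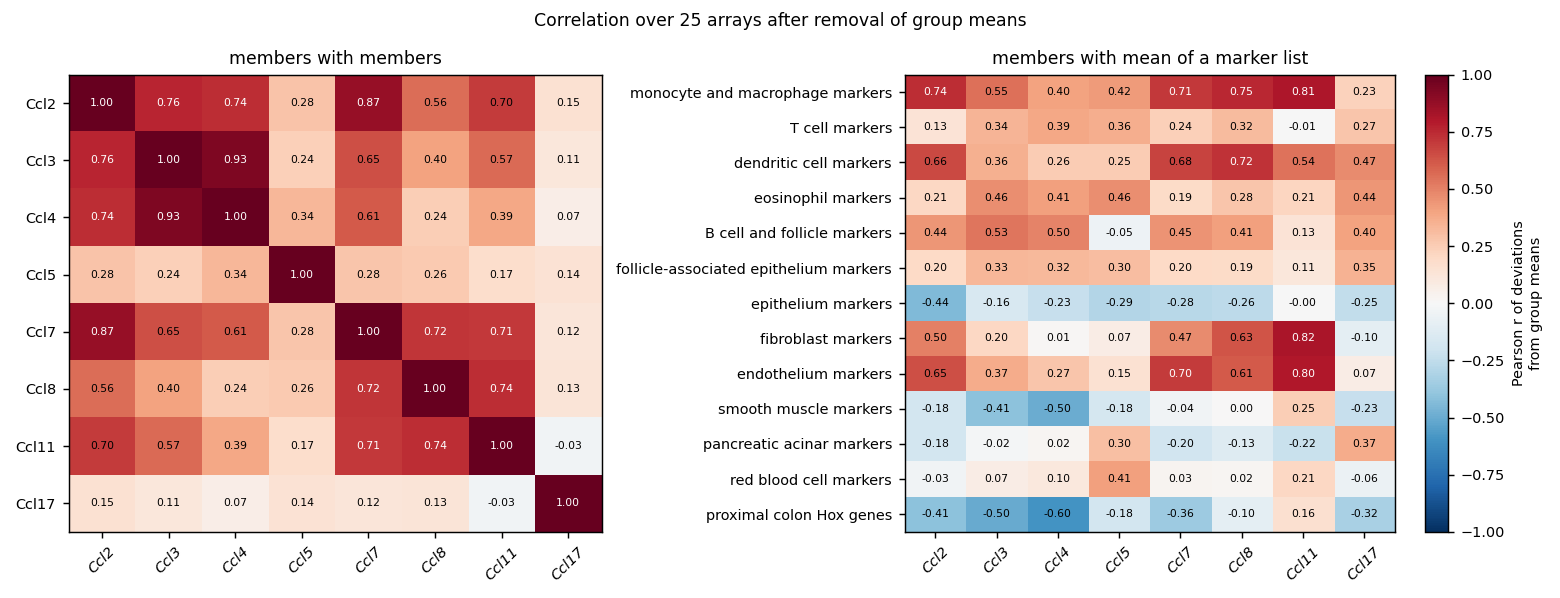
The coloured squares give Pearson's r over 25 arrays between deviations from group means, among the 8 tested chemokines in one panel and between chemokines and marker lists in the other. Ccl3 with Ccl4 (0.93) and Ccl2 with Ccl7 (0.87) are the strongest pairs, and Ccl17 is pale throughout the panel of chemokines.

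The genes whose levels followed each member most closely were sought among 17315 named genes by Pearson's r over 25 arrays, group differences included. Ccl2 was closest to the matrix metalloproteinases Mmp3 (0.97) and Mmp13 (0.97). Ccl3 was closest to the neutrophil attractant Cxcl2 (0.98) and then Ccl4 (0.97), and Ccl4 to Ccl3 (0.97) and Cxcl2 (0.95). Ccl7 was closest to Ccl2 (0.95), and then Mmp13 (0.95). Ccl8 was closest to Fcgr2b (0.97), the inhibitory receptor for IgG, and the complement gene C4b (0.96). Ccl11 was closest to Mgp (0.94), a matrix Gla protein, and Clip4 (0.94). Ccl5 was closest to the interferon-induced genes Herc6 (0.86) and Gbp2 (0.86), and Ccl17 to Lbp (0.89), the lipopolysaccharide-binding protein, and Rdh16 (0.87).

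Receptors of these chemokines changed with them in part. Of 9 CC receptors looked at, 7 were bright enough to test, and Ccr1 and Ccr4 were not. In arrays labelled Card9-/-, 3 of 7 rose between day 0 and day 7, where 6.93% of all features did. Ccr2, the receptor for Ccl2 and Ccl7, was at least 8.30-fold higher (measured difference 3.36 ± 0.49, adjusted p = 0.000103; limma). Ccr6, found on B cells, T cells and dendritic cells, rose by 3.49 ± 0.93 (adjusted p = 0.011), and Ccr7, which guides dendritic cells and naive T cells to lymphoid tissue, by 4.45 ± 0.83 (adjusted p = 0.000809; limma). In WT arrays 1 of 7 rose, where 2.02% of all features did, and this was Ccr2 (2.15 ± 0.47, limma adjusted p = 0.0122). Ccr6 and Ccr7 differed by -0.17 ± 0.89 and 1.03 ± 0.79 in WT arrays, with adjusted p of 0.943 and 0.565 (limma). Ccr3, the receptor for Ccl11, did not pass under either label (adjusted p of 0.177 and 0.148; limma).

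Day 0 levels of Ccr6 and Ccr7 were uneven under the Card9-/- label. Ccr6 lay at -4.93, -5.06 and -1.08 over the 3 arrays, and Ccr7 ranged from -5.03 to -1.72. B cell and follicle markers spread in the same way, with list means from 1.08 to 2.23 at day 7 labelled Card9-/-, against -2.34 to 1.04 at day 0, and their part in the receptor differences was not tested. At day 12, Ccr2, Ccr6 and Ccr7 were still higher than at day 0 in arrays labelled Card9-/- (limma), 3 of 7, where 3.71% of all features were. In WT arrays 0 of 7 passed the limma test between day 12 and day 0, and 2 of 7 had an unadjusted p under 0.05, with Ccr2 differing by 1.32 ± 0.47 (adjusted p = 0.186). No receptor passed the limma test between day 12 and day 7 under either label, and 2 of 7 in arrays labelled Card9-/- and 1 of 7 in WT arrays had an unadjusted p under 0.05.

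Among 9 other CC ligands that could be tested, 3 rose and 3 fell between day 0 and day 7 in arrays labelled Card9-/-. Of all features, 6.93% rose and 12.7% fell there. Ccl12, a mouse ligand of Ccr2, was at least 11.7-fold higher (measured difference 4.19 ± 0.62, adjusted p = 0.000103; limma). Ccl19, the ligand of Ccr7, rose by 4.72 ± 0.88 and Ccl24, a second eotaxin, by 0.97 ± 0.31, with adjusted p of 0.00083 and 0.0327 (limma). At day 0 labelled Card9-/-, Ccl19 ranged from -6.41 to -2.74 and was well above background on 1 of 3 arrays. The size of its differences from day 0 under that label therefore rests on dim signals. Ccl25, the small-intestinal ligand of Ccr9, fell by 1.25, Ccl27a by 0.58 and Ccl6 by 0.68, with adjusted p of 0.00146, 0.0247 and 0.0318 (limma). In WT arrays Ccl12 (at least 8.07-fold, measured difference 3.43 ± 0.59, adjusted p = 0.00214) and Ccl24 (1.33 ± 0.30, adjusted p = 0.0141) rose and none fell (limma), where 2.02% of all features rose. Between day 12 and day 0 in arrays labelled Card9-/-, 2 of 9 were higher and 1 was lower, where 3.71% of all features were higher and 3.26% lower. Ccl12 was at least 3.83-fold higher (measured difference 2.58 ± 0.59, adjusted p = 0.0108), Ccl19 was higher by 3.81 ± 0.84 (adjusted p = 0.00937), and Ccl25 fell by 0.83 ± 0.24 (adjusted p = 0.0421; limma). Ccl24 fell between day 7 and day 12 in arrays labelled Card9-/-, and was at least 2.46-fold lower (limma adjusted p = 0.00429).

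The atypical receptors, which bind chemokines without the usual signal, were also measured. Ackr1, the receptor of venules and red blood cell precursors, rose by 2.68 ± 0.42 at day 7 in arrays labelled Card9-/- and by 1.42 ± 0.40 in WT arrays, with adjusted p of 0.000195 and 0.0499 (limma). Ackr2, a scavenger of inflammatory CC chemokines, rose by 1.17 ± 0.38 and Ccrl2 by 1.55 ± 0.42 in arrays labelled Card9-/- (adjusted p of 0.0319 and 0.0111; limma). Their WT differences were 0.96 ± 0.36 and 0.89 ± 0.40, with adjusted p of 0.149 and 0.247 (limma). None of the receptors or other ligands passed the limma test between labels at day 7. Ccl25 (difference -0.69 ± 0.22) and Ccr7 (1.94 ± 0.73) had unadjusted p under 0.05, namely 0.00561 and 0.015, with adjusted p of 0.128 and 0.184 (limma).

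**Figure D5:**
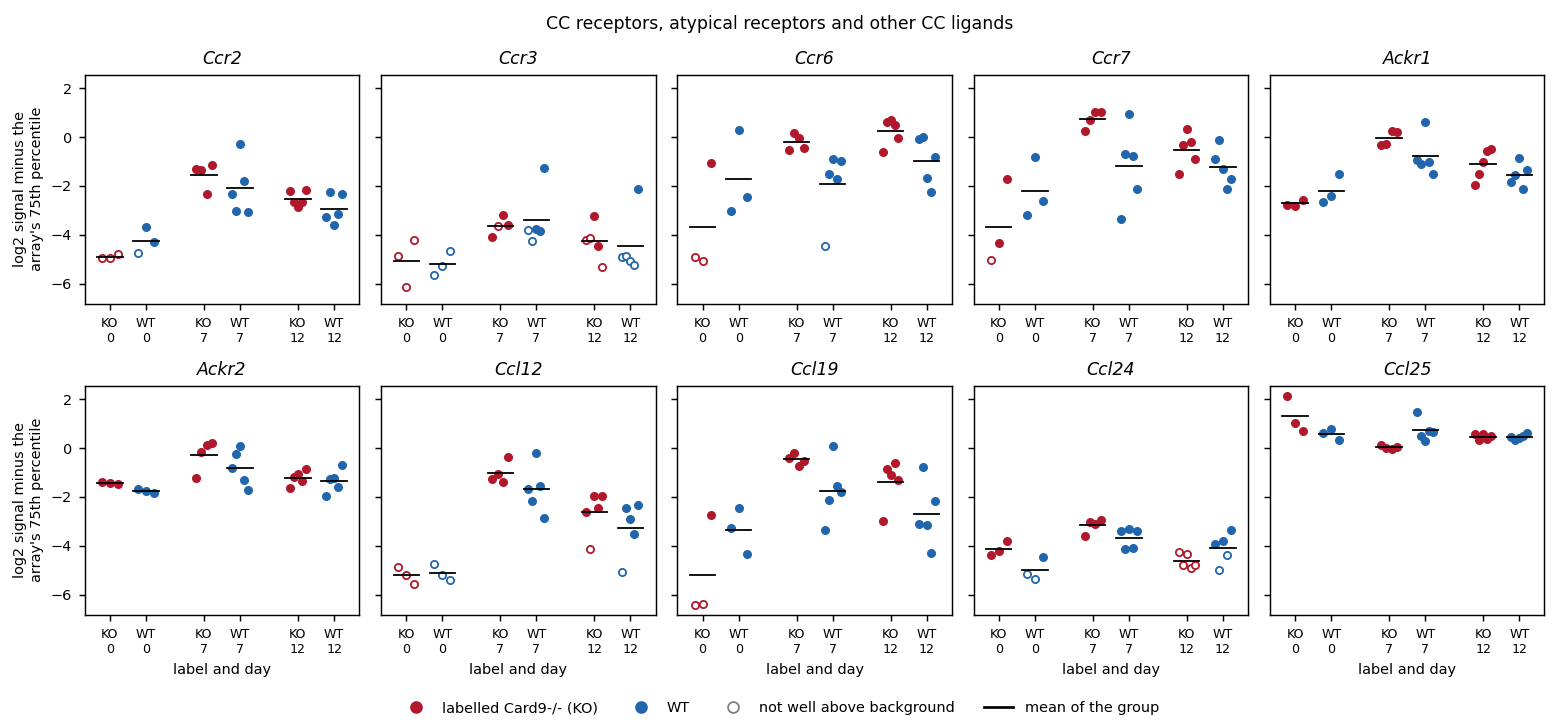
Each panel plots 1 CC receptor, the atypical receptor Ackr1 or Ackr2 or another CC ligand, with the log2 level relative to the array's 75th percentile on the vertical axis and label (KO for arrays labelled Card9-/-, and WT) and day on the horizontal axis; points are single arrays, open where not well above background, and bars are group means. Ccr2 and Ccl12 are higher at day 7 than at day 0 under both labels, and Ccr6 lies at -4.93 and -5.06 in 2 of the day 0 arrays labelled Card9-/-.

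Slides gave the same directions for the day 7 comparison in nearly all members. Of the 4 slides, 2 held both day 7 and day 0 arrays labelled Card9-/-, and all 8 differences were positive on both. In WT arrays 3 slides could be compared, and the differences were positive on all 3 for 6 members, on 2 for Ccl11 and on 1 for Ccl5. Between day 12 and day 7 labelled Card9-/-, 7 members were lower at day 12 on all 4 slides, and Ccl5 on 3 of them. In WT arrays Ccl5, Ccl8, Ccl11 and Ccl17 were lower at day 12 on all 4 slides, and Ccl2, Ccl3, Ccl4 and Ccl7 on 3.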

How the data were processed

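Colon RNA of 25 mice was read on 1-colour Agilent arrays spread over 4 slides, scanned and extracted with Agilent Feature Extraction 10.7.3.1 per the file headers. The deposited values are processed signal intensity per spot, background-subtracted by that software. The authors also deposited a table of log2 values, used here as an alternative, with normalization not given in the sources used here. Each array's 75th percentile over non-control spots was subtracted from log2 intensity, spots of a probe were averaged, and probes well above background on fewer than 3 arrays were left out. The brightest probe stood for a gene. Probes were named from the files or by accession or symbol through RefSeq. A model of 6 group means was fitted in limma 3.58.1 (R 4.3.3), with Benjamini-Hochberg adjustment over 25448 genes or unnamed probes. The fit was tested on simulated data. Intervals are 95% intervals of the limma fit, and the number of arrays limits the precision.

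The chemokines and the lists were chosen with earlier results of these data known. Genes most like a member are the 2 highest Pearson correlations over arrays with at least 20 values. The labels do not say that equal replicate numbers share a litter or day, so the numbers were not used as pairs. Of 54 same-numbered pairs of arrays, 15 had deviations correlated above 0.1 (median 0.04). Of 204 differently numbered pairs, 65 did (median 0.007). A CC receptor of the lists is not reported here. Ccl21a and Ly6c2 matched no probe by name. Figures were drawn with matplotlib 3.10.9 in Python 3.11.15.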

Additional observations from a re-analysis of the deposited data

Results flagged for a closer look

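Of 44 groups of 4 or 5 arrays looked at for the 10 chemokines and Card9, 3 held 1 array far from the rest by Dixon's test, and chance alone flags about 1 in 20 groups. Ccl20 stood at -2.74 in WT day 7 replicate 5, where the nearest array of its group was at -6.34. Ccl20 stood at -5.01 in day 12 replicate 1 labelled Card9-/-, where the nearest was at -6.70 and none was well above background; that array is also rich in pancreatic genes. Card9 stood at -2.93 in WT day 12 replicate 5, where the nearest was at -6.00; pancreatic genes were also high in that array.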

How the results depend on the processing

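Between day 7 and day 0, in arrays labelled Card9-/-, 7 to 8 members were called when single arrays were left out and 6 to 8 under the other alternatives. Over the whole series 3227 to 5503 features passed when single arrays were left out, against 5005 in the main fit. The whole-series counts here and below take both directions. In WT arrays 4 to 6 members were called when single arrays were left out, and 0 when only the groups compared were fitted. The whole-series counts were 401 to 1592 and 38, against 1106 in the main fit. Between day 12 and day 7 labelled Card9-/-, leaving out single arrays gave 2 to 3 calls, no filter on dim probes 2, and leaving out the 4 arrays rich in pancreatic genes 0. The whole-series counts were 1033 to 2260, 1278 and 249, against 1963 in the main fit. More members were called with a filter of 13 arrays well above background (6) and with the Hox mean in the fit (5), with whole-series counts of 2317 and 2509. In WT arrays the same comparison gave 0 to 3 members when single arrays were left out, and 0 with no filter, with normexp background correction, with only the groups compared, with the authors' value table, with the slide as a block, and without the pancreatic arrays. The whole-series counts were 28 to 231 when single arrays were left out. They were 0 to 104 in the other fits named, against 124 in the main fit. Between day 12 and day 0 labelled Card9-/-, 3 to 5 members were called when single arrays were left out, 1 with normexp, 2 with the Hox mean in the fit and 3 of 6 tested with the authors' table. The whole-series counts were 479 to 1963, 1339, 333 and 1743, against 1773 in the main fit. In WT arrays 1 to 2 members were called when single arrays were left out, 1 with normexp, 1 with the authors' table and 1 without the pancreatic arrays. The whole-series counts were 112 to 365, 291, 426 and 247, against 441 in the main fit. With the Hox mean in the fit 4 members were called, with a whole-series count of 683. Between labels at day 7, 0 to 1 members were called when single arrays were left out, and no other comparison between labels called any member. The whole-series counts at day 7 were then 4 to 2273, against 140 in the main fit. With the replicate number as a block, 8, 6, 4, 1, 5 and 3 members were called in the comparisons between days (day 7 and day 0, day 12 and day 7, day 12 and day 0, each labelled Card9-/- and then WT), as without it, although Ccl4 between WT day 12 and day 0 moved to adjusted p = 0.0832 and Ccl2 to 0.0443. Over 1818 refitted differences of single members, none that was called changed direction, 98 lost their call, 15 gained one and 46 that were not called changed sign. Normexp narrowed differences from dim day 0 levels, and Ccl3 between day 7 and day 0 labelled Card9-/- became 3.89. The processed signal near background limits every value at day 0 for Ccl2, Ccl3, Ccl4 and Ccl7, and at every day for Ccl20 and Ccl22.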
